A study of Mus musculus with 12 samples.

Results

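The genes of the c-Jun N-terminal kinase (JNK) cascade were followed in murine hip cartilage with and without Mapk9, the gene of JNK2. The set held 10 genes, taken by name: the kinases Mapk8, Mapk9 and Mapk10, the activating kinases Map2k4 and Map2k7, the scaffolds Mapk8ip1 and Mapk8ip3, the upstream kinases Map3k5 and Map3k7, and the regulator Gadd45b. Of these, 9 had at least 1 probe in the normalized expression table and Mapk10 had none, out of 15434 gene symbols in the table and 30869 on the array. The array carried 31 probes for the set, of which 17 were in the table and 14 were outside it.

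The data comprised 12 Illumina mouse BeadChips in 4 groups of 3. Hips of wild-type mice (WT control) and of mice lacking Mapk9 (Mapk9 KO control) were profiled without injury, and hips of each genotype were profiled post injury (WT injured, Mapk9 KO injured). All hips came from C57BL6 mice labelled as 4 to 6 weeks old. Per the study's methods, injury was avulsion of the femoral epiphysis, control hips (CTRL) were snap-frozen, and injured hips were kept in serum-free culture, here for 4 h, so injury and culture cannot be told apart. The methods describe a replicate as 6 hips pooled from 3 animals, but speak of control and injured sets without naming the knockout. The Mapk9 KO groups are labelled by genotype alone, and the allele, the deleted part of the gene and the littermate status of the WT mice are not given in the sources used here.

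JNKs are stress-activated MAP kinases. Upstream MAP3 kinases such as Map3k5 (ASK1) and Map3k7 (TAK1) phosphorylate the MAP2 kinases Map2k4 (MKK4) and Map2k7 (MKK7), which in turn phosphorylate JNK, while scaffolds such as Mapk8ip1 (JIP1) and Mapk8ip3 (JIP3) hold the kinases of the cascade together. Mapk8 (JNK1) and Mapk9 are expressed in most tissues and Mapk10 (JNK3) mainly in the nervous system. The cascade is switched on by injury and inflammatory signals in cartilage, and its activity is set by phosphorylation, which an RNA array does not measure. The comparisons ask how Mapk9 loss left the RNA of the other JNK genes, and what injury did to the RNA of each.

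Levels are normalized signals on a log2 scale, so that a difference of 1 is a 2-fold change, and probes of a gene are numbered from the brightest. Levels of different probes cannot be compared with each other. A probe was counted as detected on an array where its detection p was under 0.05, and the dimmest detected probe of an array had a level between 5.62 and 6.05. A probe was called changed at a fold change above 2 with an adjusted p under 0.05 (limma, Benjamini-Hochberg over all 21004 probes). Array medians lay between 7.55 and 7.70, and 16930 to 18969 probes were detected per array. Of 9 chondrocyte markers 7 were in the table, and their summed level was 14.67 to 15.36 in WT control and 14.60 to 15.20 in Mapk9 KO control, and 15.80 to 16.10 and 15.66 to 15.96 in the injured groups, with Matn3 detected on no array. Skeletal muscle markers were also present, 10 of 10 in the table, with a summed level of 15.82 to 16.34 in WT control, 16.53 to 17.16 in Mapk9 KO control, 13.02 to 14.84 in WT injured and 13.36 to 14.61 in Mapk9 KO injured. In whole tissue, fewer cells of a type and less RNA per cell cannot be told apart.

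The probes of the JNK genes themselves are shown because the reading of the knockout depends on where they sit. Mapk9 probe 2 starts at base 900 of the Mapk9 transcript, within the sequence that codes for the kinase, and is given whole. Mapk9 probe 1 starts at base 4211 of the same transcript, far downstream of it, and is given by its first 30 bases, as is Mapk8 probe 1. The file puts both Mapk9 probes on chromosome 11, with no genome build named.
Mapk9 probe 2: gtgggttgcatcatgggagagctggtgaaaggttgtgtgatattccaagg
Mapk9 probe 1: gtcccatgccgatagtcagtacaggtgtga
Mapk8 probe 1: ccgtgggttatcgttcatgccctagtcatt

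The other Mapk8 probes in the table, probe 2 and probe 3, are the same sequence shifted by 2 bases and share 48 of their 50 bases, so they are not independent readings of Mapk8. Their first 30 bases are given below, with the part of these that both share in capitals.
Mapk8 probe 2: CTCTCAGACACACACACACAGGGGAGGGgg
Mapk8 probe 3: tcCTCTCAGACACACACACACAGGGGAGGG

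Mapk9 was lower in Mapk9 KO than in WT at both of its probes, in control and in injured hips. Mapk9 probe 2 had levels of 7.29, 6.23 and 7.09 in WT control and was detected on 3 of 3 arrays. In WT injured it read 6.03, 5.03 and 5.81 and was detected on 1 of 3. In Mapk9 KO control it read 4.23, 4.09 and 4.28 and in Mapk9 KO injured 3.62, 3.42 and 3.75, and it was detected on 0 of these 6 arrays. Every Mapk9 KO array thus lay under every WT array at this probe, and under the dimmest detected level. In control hips the level was at least 1.92-fold lower in Mapk9 KO, with a fitted log2 difference of -2.67 (SE 0.28, limma adjusted p = 0.00244). In injured hips the fitted difference was -2.03 (SE 0.25, limma adjusted p = 0.00892), but no fold is given because WT injured was itself at the edge of detection. With quantile normalization without background correction the differences came to -0.85 (limma adjusted p = 0.119) in control and -0.45 (0.123) in injured hips, and with neqc, another background correction, to -0.85 (0.213) in injured hips, so these calls were lost. The quantile-normalized difference in control hips was smaller than the bound of 1.92-fold.

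Mapk9 probe 1 was detected on 12 of 12 arrays, also in Mapk9 KO. It read 10.88, 10.90 and 10.50 in WT control, 10.30, 10.57 and 10.05 in WT injured, 9.14, 9.28 and 9.15 in Mapk9 KO control, and 8.75, 8.78 and 8.69 in Mapk9 KO injured. The WT and Mapk9 KO arrays did not overlap, and signal remained in the knockout well above the dimmest detected level. The genotype difference was -1.57 in control hips (SE 0.21, 95% CI -2.03 to -1.11, limma adjusted p = 0.0151) and -1.57 in injured hips (SE 0.18, 95% CI -1.96 to -1.17, limma adjusted p = 0.00485). Averaged over both conditions and fitted on 12 arrays, Mapk9 probe 1 was 2.97-fold lower in Mapk9 KO (log2 difference -1.57, SE 0.13, limma adjusted p = 9.22e-06). With the replicate number as a block, the call in control hips was lost for probe 1 (limma adjusted p = 0.061) and kept for probe 2 (limma adjusted p = 0.019). With the methods' t-test the calls of both probes were lost, with adjusted p of 0.307 and 0.488 in control and 0.293 and 0.459 in injured hips for probe 1 and probe 2. The call for probe 1 in control hips was also lost without WT control replicate 1 (limma adjusted p = 0.119) or without Mapk9 KO control replicate 1, 2 or 3 (0.114, 0.104 and 0.0744), and that for probe 2 in injured hips without WT injured replicate 3 (0.0748). Since the deleted part is not given, whether either probe lies inside it was not tested, and a probe outside it would not check the labels.

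The other Mapk9 probes on the array, both outside the table, were detected on 0 of 12 arrays. Over the 17 probes of the set, the genotype call was made for the Mapk9 probes only: 2 in control hips (1 with the replicate block), 2 in injured hips and 2 in the average, each time lower in Mapk9 KO. Over the whole table the share called was 0.119% in control hips (0.0286% higher and 0.0905% lower), 0.181% in injured hips (0.0714% higher and 0.110% lower) and 0.190% in the average (0.0667% higher and 0.124% lower).

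**Figure D1:**
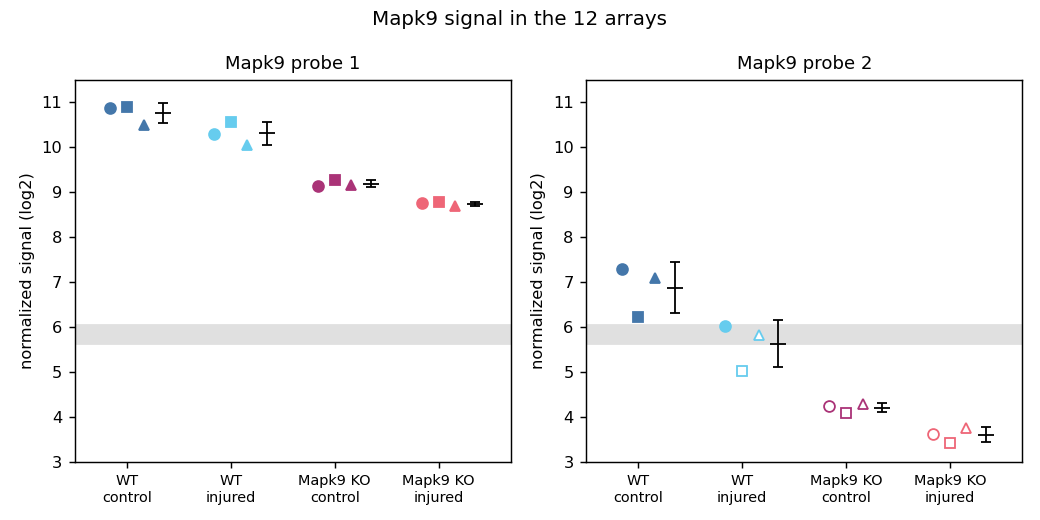
Normalized signal of Mapk9 probe 1 (left) and probe 2 (right) on the log2 scale, by group. Symbols are arrays (circle, square and triangle for replicate 1, 2 and 3, filled where detected, open where not), bars are the mean and SD of 3 arrays, and the grey band spans the dimmest detected level of the 12 arrays, 5.62 to 6.05. All Mapk9 KO arrays lie under all WT arrays in both panels, between 8.69 and 9.28 for probe 1 and between 3.42 and 4.28 for probe 2.

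Mapk9 RNA was also lower post injury. At probe 2 the WT arrays fell by 1.26, 1.20 and 1.28 from control to injured in the 3 pairs that share a replicate number, and the difference of -1.25 (SE 0.33, limma adjusted p = 0.0206) was called. That call was lost when 1 of 3 arrays was left out: WT control replicate 1 (-1.04, limma adjusted p = 0.0842), WT control replicate 3 (-1.14, 0.0575) or WT injured replicate 2 (-0.95, 0.0803). It was also lost with quantile normalization without background correction (-0.49, under the fold limit) and with the methods' t-test (adjusted p = 0.156). At probe 1 the difference was -0.45 in WT (SE 0.22, limma adjusted p = 0.163) and -0.45 in Mapk9 KO (SE 0.16, limma adjusted p = 0.0481), both under the fold limit. At probe 1 WT control stood highest, then WT injured, then the uninjured knockout, and Mapk9 KO injured lowest. The WT control and WT injured arrays overlapped, and the other neighbours in this order did not. At probe 2 WT control stood above WT injured and the knockout groups lay under both, but these were undetected and have no order between them.

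Mapk8, the gene of JNK1 and the closest candidate for a compensating rise, was not called different between the genotypes at any of its 3 probes in the table. Mapk8 probe 1, detected on 12 of 12 arrays, read 8.73, 8.89 and 8.50 in WT control and 8.23, 8.75 and 8.39 in Mapk9 KO control. In injured hips it read 8.31, 8.13 and 7.85 in WT and 8.13, 8.28 and 8.15 in Mapk9 KO. The genotypes overlapped in both conditions. Over 12 arrays the average difference, Mapk9 KO minus WT, was -0.08 (SE 0.13, limma adjusted p = 0.908), and its 95% CI of -0.37 to 0.21 ran from 0.776-fold to 1.16-fold. Within each condition the interval was wider, reaching 1.19-fold in control and 1.39-fold in injured hips.

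The overlapping pair of Mapk8 probes allowed a somewhat larger rise. Mapk8 probe 2, also detected on 12 arrays, had means of 7.12 ± 0.10 (SD, n = 3) in WT control and 7.22 ± 0.31 in Mapk9 KO control, and an average genotype difference of 0.12 (95% CI -0.19 to 0.42, up to 1.34-fold). Mapk8 probe 3, detected on 9 arrays, had an average difference of 0.21 (95% CI -0.18 to 0.60, up to 1.52-fold). In injured hips its arrays read 6.71, 6.34 and 6.26 in Mapk9 KO and 6.16, 5.72 and 6.22 in WT, which did not overlap. That difference of 0.40 (SE 0.20, 95% CI -0.04 to 0.85) did not pass the test (limma adjusted p = 0.438), and these levels are near the dimmest detected one. The last Mapk8 probe, outside the table, was detected on 0 of 12 arrays.

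Post injury, Mapk8 probe 1 was lower in each of the 3 WT pairs, by 0.42, 0.76 and 0.65, without overlap of the groups (log2 difference -0.61, SE 0.21, limma adjusted p = 0.0607, and 0.0374 with the replicate block, under the fold limit in both fits). In Mapk9 KO the difference was -0.27 (SE 0.19, limma adjusted p = 0.288), and the interaction, the injury change in Mapk9 KO minus that in WT, was 0.34 (95% CI -0.24 to 0.91, limma adjusted p = 0.715). At probe 2 the injury differences were -0.03 in WT and 0.01 in Mapk9 KO, so the fall of probe 1 was not seen there.

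Mapk10, the gene of JNK3, was not detected in either genotype. Its 3 probes, which the file places on chromosome 5, gave raw bead signals between 94.3 and 151 over the 12 arrays, and the lowest of their detection p values was 0.252. In Mapk9 KO control the signals ran from 97.5 to 142 and in WT control from 94.3 to 151. The neuron markers Snap25, Nefl, Nefm, Syt1 and Gap43 were likewise detected on no array. Tubb3 was detected on 1 of 12 arrays, with levels of 4.91 to 5.75 in WT control and 5.45 to 6.01 in Mapk9 KO control, which overlapped. A rise of Mapk10 from no signal to a detected one in Mapk9 KO was not seen, but a change below detection could not be measured.

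The activating kinases did not differ between the genotypes by the test. Map2k4 probe 1 (chromosome 11, as Mapk9) had means of 10.14 ± 0.26 (SD, n = 3) in WT control and 10.20 ± 0.21 in Mapk9 KO control, and 10.56 ± 0.07 in WT injured and 10.64 ± 0.27 in Mapk9 KO injured. Its average genotype difference was 0.07 (95% CI -0.23 to 0.37, limma adjusted p = 0.919), and that of Map2k4 probe 2 was 0.13 (95% CI -0.18 to 0.44, limma adjusted p = 0.836). The arrays of the genotypes overlapped at both probes. Post injury, Map2k4 probe 1 was 0.42 higher in WT (SE 0.21, limma adjusted p = 0.165) and 0.44 higher in Mapk9 KO (SE 0.20, limma adjusted p = 0.113). Averaged over the genotypes this came to 0.43 (SE 0.14, limma adjusted p = 0.0198), under the fold limit, while Map2k4 probe 2 differed by 0.08 (limma adjusted p = 0.678).

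Map2k7 probe 1 read 8.82, 8.80 and 8.86 in WT control, 8.61, 9.0 and 8.80 in WT injured, 8.88, 8.79 and 8.75 in Mapk9 KO control, and 8.36, 8.76 and 8.43 in Mapk9 KO injured. These levels overlapped in every comparison. The genotype difference was -0.02 (95% CI -0.44 to 0.41) in control hips and -0.28 (95% CI -0.69 to 0.12) in injured hips, and the injury difference was -0.03 in WT and -0.29 in Mapk9 KO (SE 0.18, limma adjusted p = 0.231). The other Map2k7 probes in the table were dim, detected on 4 arrays (probe 2) and 1 array (probe 3), and none of their differences was called.

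**Figure D2:**
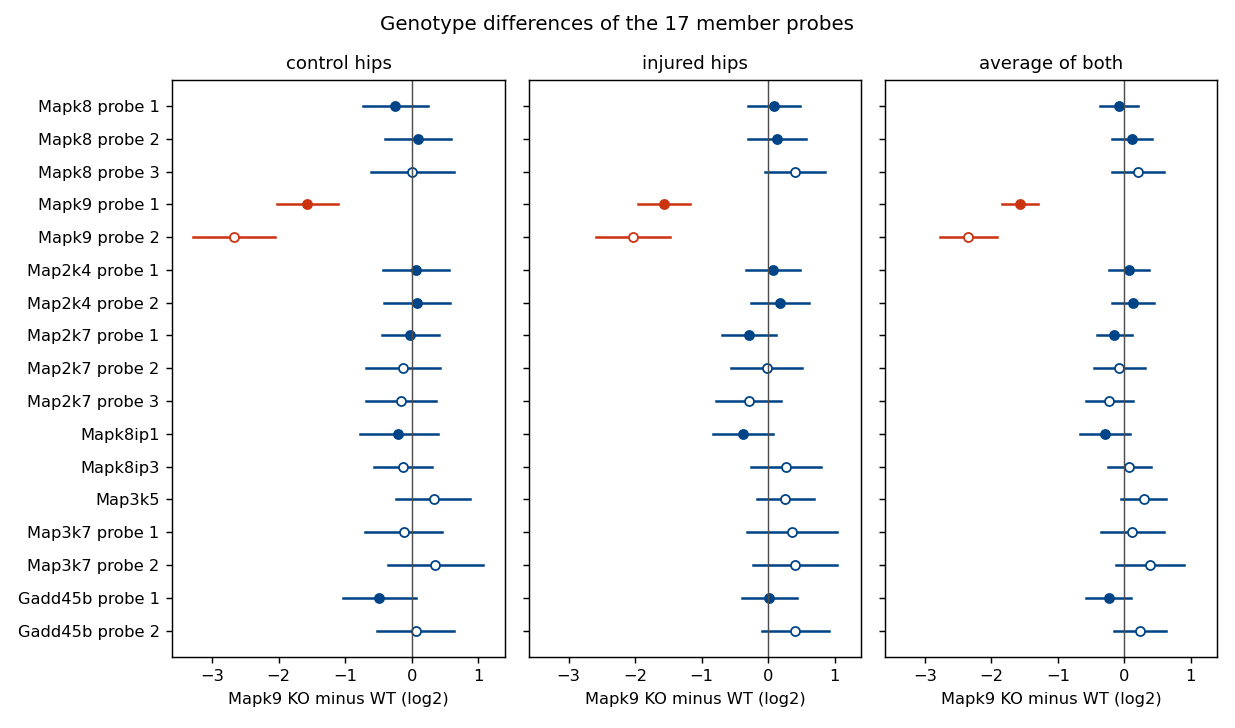
Genotype difference (Mapk9 KO minus WT, log2 scale) of the 17 probes of the set, with 95% CI, in control hips, in injured hips and averaged over both. Filled points are probes detected on 12 of 12 arrays, open points those detected on fewer, and Mapk9 is in red. The intervals of Mapk9 probe 1 and probe 2 lie wholly under 0 in each panel, and those of the other 15 probes span 0.

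The scaffold gene Mapk8ip1, whose product JIP1 assembles Map2k7 and JNK, fell post injury in both genotypes. Its probe (chromosome 2, detected on 12 arrays) read 7.64, 7.14 and 7.94 in WT control and 6.20, 6.69 and 6.49 in WT injured. In Mapk9 KO it read 7.00, 7.56 and 7.56 in control and 6.38, 6.06 and 5.82 in injured hips. The control and injured arrays did not overlap in either genotype. The difference was -1.11 in WT (SE 0.25, 95% CI -1.67 to -0.56, limma adjusted p = 0.0094) and -1.29 in Mapk9 KO (SE 0.22, 95% CI -1.77 to -0.80, limma adjusted p = 0.000957), and the interaction was -0.18 (95% CI -0.91 to 0.56, limma adjusted p = 0.898). In WT the difference came under the fold limit when WT control replicate 3 (-0.93) or, in its place, WT injured replicate 1 (-0.98) was left out. With quantile normalization without background correction the differences were -0.57 in WT, -0.63 in Mapk9 KO and -0.60 in the average, all under the fold limit, and the methods' t-test gave an adjusted p of 0.0823 in WT. The summed skeletal muscle markers fell over the same arrays, as did the adipocyte markers (2 of 4 in the table, from 10.47 to 12.43 in WT control to 7.08 to 8.92 in WT injured, and from 11.80 to 13.44 to 5.76 to 6.99 in Mapk9 KO, with Fabp4 detected on no array), and their part in the fall of Mapk8ip1 was not tested. Between the genotypes Mapk8ip1 differed by -0.29 on average (95% CI -0.66 to 0.08, limma adjusted p = 0.666).

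Mapk8ip3, the gene of JIP3, had higher levels post injury, near the limit of detection. It was undetected on all 6 control arrays, with levels of 5.29, 5.35 and 5.07 in WT and 5.03, 5.09 and 5.19 in Mapk9 KO. In injured hips it read 6.03, 5.81 and 5.62 in WT, detected on 1 array, and 5.57, 6.34 and 6.36 in Mapk9 KO, detected on 2. The injured arrays lay above the control arrays in both genotypes. In Mapk9 KO the level was at least 1.12-fold higher post injury, and the fitted difference of 0.99 (SE 0.23, limma adjusted p = 0.0057) missed the fold limit, which it passed without Mapk9 KO control replicate 3 (1.03) or Mapk9 KO injured replicate 1 (1.25). In WT the fitted difference was 0.58 (SE 0.20, limma adjusted p = 0.0607, and 0.041 with the replicate block, under the fold limit). The other 3 Mapk8ip3 probes and the other Mapk8ip1 probe, outside the table, were detected on no array.

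The upstream kinases of the set were close to background. Map3k5, the gene of the redox-sensitive ASK1, was detected on 4 of 12 arrays, 1 in each group, with levels between 5.31 and 6.56, and its 2 probes outside the table were detected on none. Map3k7, the gene of TAK1, which relays interleukin and TGF-beta signals, was detected on 8 arrays at probe 1 and on 1 array at probe 2. No comparison of either gene was called. The largest of their average genotype differences, 0.38 at Map3k7 probe 2, had a 95% CI of -0.13 to 0.89 (limma adjusted p = 0.678).

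Gadd45b, a stress-induced protein that binds MAP3 kinases and Map2k7, rose post injury more than any other gene of the set. Gadd45b probe 1 (chromosome 10) read 7.64, 7.38 and 8.24 in WT control and 10.77, 11.11 and 11.26 in WT injured. In Mapk9 KO it read 7.45, 7.21 and 7.13 in control and 10.90, 11.08 and 11.21 in injured hips. Both injured groups reached the same range, far above both control groups. The rise was 9.80-fold in WT (log2 difference 3.29, SE 0.26, 95% CI 2.72 to 3.87, limma adjusted p = 2.66e-05) and 13.9-fold in Mapk9 KO (log2 difference 3.80, SE 0.18, 95% CI 3.40 to 4.19, limma adjusted p = 1.85e-07). The interaction of 0.50 (SE 0.31, 95% CI -0.17 to 1.18, limma adjusted p = 0.631) did not pass the test. The genotype difference was -0.49 in control hips (SE 0.25, limma adjusted p = 0.832), where the arrays overlapped, and 0.02 in injured hips (SE 0.18, limma adjusted p = 0.979).

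Gadd45b probe 2, which starts at base 715 of the transcript where probe 1 starts at base 949, was undetected on the 6 control arrays and detected on the 6 injured ones. The first 30 bases of each probe are given to show that they do not overlap.
Gadd45b probe 1: aggagggcacctcaggcaagaggagactga
Gadd45b probe 2: tccaaacatctaaagcaactgtcgagttgc

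At Gadd45b probe 2 the injured level was at least 4.82-fold higher in WT (fitted log2 difference 2.71, limma adjusted p = 7.32e-05) and at least 6.05-fold higher in Mapk9 KO (3.07, limma adjusted p = 4.09e-06), and the interaction was 0.35 (95% CI -0.42 to 1.13, limma adjusted p = 0.784). The Gadd45b calls of both probes were kept under each alternative processing, but with quantile normalization without background correction the log2 differences of probe 2 came to 1.35 in WT and 1.66 in Mapk9 KO, below these bounds. Macrophage markers, 5 of 6 in the table, rose over the same arrays from 12.76 to 13.25 in WT control to 14.18 to 14.47 in WT injured and from 13.09 to 13.44 to 14.29 to 14.72 in Mapk9 KO, in summed level, and their part in the rise of Gadd45b was not tested.

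**Figure D3:**
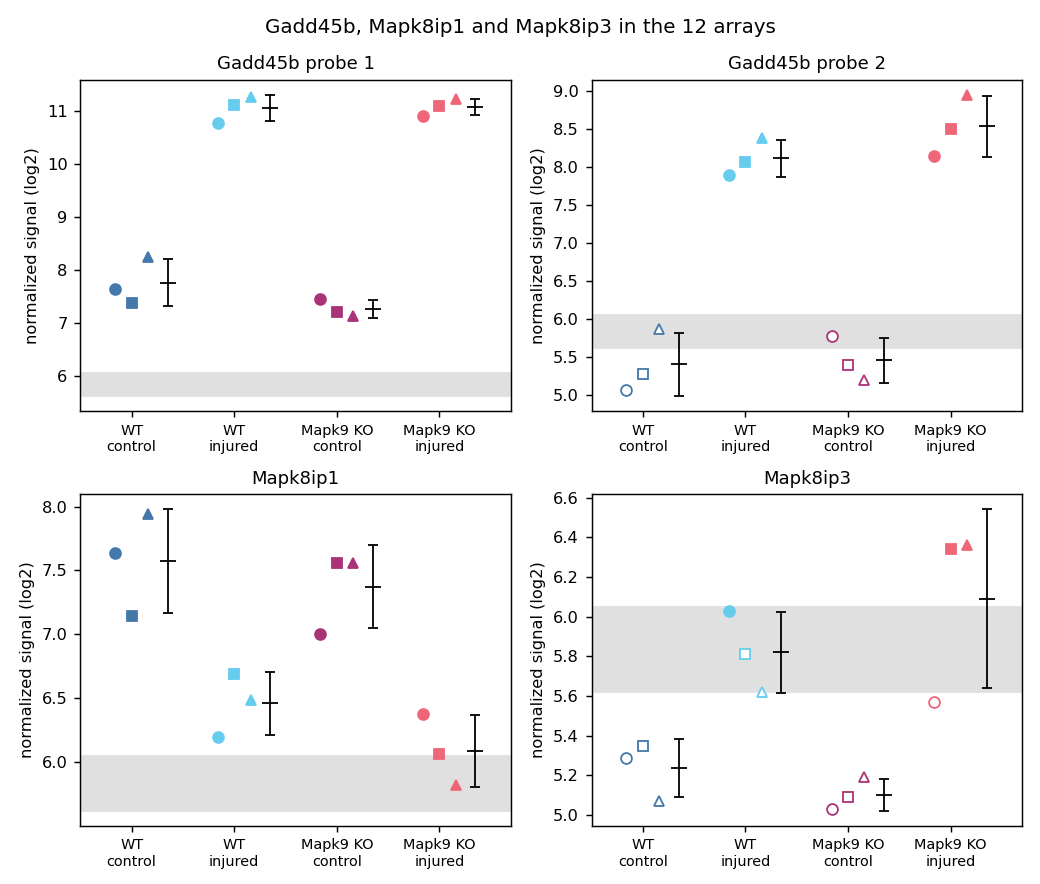
Normalized signal on the log2 scale of Gadd45b probe 1 and probe 2, Mapk8ip1 and Mapk8ip3, by group. Symbols are arrays (circle, square and triangle for replicate 1, 2 and 3, filled where detected, open where not), bars are the mean and SD of 3 arrays, and the grey band spans the dimmest detected level of the 12 arrays. Injured arrays lie above control arrays for Gadd45b and Mapk8ip3 and under them for Mapk8ip1 in both genotypes, and each panel has its own vertical axis.

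Over the 17 probes of the set, 4 were called post injury in WT, the 2 Gadd45b probes higher and Mapk9 probe 2 and Mapk8ip1 lower, or 23.5%. Of all probes tested, 14.7% were called in WT (7.55% higher and 7.14% lower). In Mapk9 KO 3 were called, the 2 Gadd45b probes higher and Mapk8ip1 lower, or 17.6%, against 18.7% of all probes (9.59% higher and 9.14% lower). Averaged over the genotypes the same 3 were called, against 16% of all probes (8.06% higher and 7.91% lower). At an adjusted p under 0.05 without the fold limit, 4 of the 17 passed in WT, 6 in Mapk9 KO and 8 in the average, against 25.3%, 38.3% and 46.7% of all probes. The median injury difference of the set was -0.14 in WT and -0.04 in Mapk9 KO, beside -0.02 over all probes in both. For the interaction, 0 of the 17 probes were called by limma and 0 had an unadjusted p under 0.05, and 0 of the 21004 probes of the table (0%) were called, with 2088 at an unadjusted p under 0.05.

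The other genes of the pathway, listed by name, gave 41 of 57 genes and 67 probes in the table. They were chosen with earlier results of these data known, and a gene with several probes counts more than once in the shares of probes. In WT, 13 of the 41 genes changed post injury, 10 higher and 3 lower, and 24 of the 67 probes (35.8%) were called, against 14.7% of all probes. In Mapk9 KO, 13 genes changed, 11 higher and 2 lower, with 22 probes (32.8%) called, against 18.7% of all probes. The median difference of the 67 probes was 0.24 in WT and 0.22 in Mapk9 KO, beside -0.02 over all probes in both. For the interaction 0 of 67 probes were called by limma, and 2 had an unadjusted p under 0.05.

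Among the adaptors and regulators of the upstream kinases, the relatives of Gadd45b rose with it and the other 9 of 11 genes were not called. Gadd45g probe 2 went from a mean of 8.81 to 11.78 in WT (log2 difference 2.96, SE 0.23, limma adjusted p = 2.21e-05) and from 8.02 to 11.77 in Mapk9 KO (3.75, SE 0.18, limma adjusted p = 1.85e-07). As for Gadd45b, the injured means of the genotypes lay close together. The interaction at Gadd45g probe 2, 0.79 (SE 0.27, limma adjusted p = 0.382), did not pass the test. The brighter Gadd45g probe 1 rose less, by 2.03 in WT and 2.47 in Mapk9 KO, with an interaction of 0.44 (SE 0.23, limma adjusted p = 0.55). Gadd45a probe 1, whose product also binds MAP3 kinases, rose by 1.91 in WT and 2.19 in Mapk9 KO.

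Of the 10 upstream kinase genes in the table, Map3k6 and Map4k2 rose in both genotypes, by 1.26 and 1.60 for Map3k6 probe 2 and by 1.69 and 2.22 for Map4k2 probe 2 in WT and Mapk9 KO. At probe 1 the WT rises of Map3k6 (1.03) and Map4k2 (1.02) were called but each lost the call with some arrays left out: WT control replicate 2 or WT injured replicate 2 or 3 for Map3k6 (down to 0.83), and replicate 1 or 3 of WT control or replicate 1 or 2 of WT injured for Map4k2 (down to 0.78). The Map3k6 probe 1 call in Mapk9 KO was lost without Mapk9 KO injured replicate 3 (0.99). With quantile normalization without background correction both Map3k6 probes were under the fold limit in both genotypes (0.66 and 0.76 at probe 1, 0.80 and 0.95 at probe 2), as was Map4k2 probe 1 in WT (0.82). The methods' t-test made none of the WT calls of these 2 genes (adjusted p of 0.108 and 0.0872 for Map3k6, 0.115 and 0.0537 for Map4k2). Map4k3, an activator of the cascade, differed by -1.38 in WT (SE 0.21, limma adjusted p = 0.0011) and by -0.85 in Mapk9 KO (SE 0.20, limma adjusted p = 0.00659), the latter under the fold limit, and its interaction was 0.53 (SE 0.28, limma adjusted p = 0.547). Map3k2 was called in Mapk9 KO, where it was undetected before injury and at least 1.19-fold higher after it (limma adjusted p = 0.00139). Its fitted log2 difference of 1.55 came under the fold limit with quantile normalization without background correction (0.44), and the methods' t-test did not call it (adjusted p = 0.0518). In WT its fitted difference was 0.98 (SE 0.25, limma adjusted p = 0.0166), just under the fold limit, with the gene undetected in both groups.

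JNK phosphatases, which remove the activating phosphates, rose for 2 of 4 genes. Dusp1, an early response gene, went from 11.53 to 12.87 in WT and from 11.07 to 12.77 in Mapk9 KO. Dusp16, which acts mainly on JNK and p38, rose at 3 of 3 probes, by 1.29 to 1.39 in WT and by 1.12 to 1.39 in Mapk9 KO, where the call of probe 1 was lost without Mapk9 KO control replicate 3 (1.0) or Mapk9 KO injured replicate 2 (0.95). Its probe 3 in WT (0.91) and its probes 1 and 3 in Mapk9 KO (0.96 and 0.93) were under the fold limit with quantile normalization without background correction. Of the nuclear targets, 2 of 4 genes were in the table and Jun was the one called, with means of 8.88 and 10.92 in WT (log2 difference 2.04, SE 0.20, limma adjusted p = 0.000112) and 8.52 and 10.67 in Mapk9 KO (2.15, SE 0.17, limma adjusted p = 4.78e-06). The Jun interaction was 0.11 (SE 0.24, limma adjusted p = 0.907).

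Of the other scaffold genes, 2 of 3 in the table were called higher post injury, 1 of them at its brightest probe. Arrb2, the gene of beta-arrestin 2, rose by 1.07 in WT, a call lost when replicate 1 or 3 of WT control or replicate 1 or 2 of WT injured was left out (limma adjusted p from 0.0872 to 0.113), and by 1.27 in Mapk9 KO. The WT call was also lost with neqc (0.99), with quantile normalization without background correction (0.90) and with the methods' t-test (adjusted p = 0.176). In WT the control and injured arrays of Arrb2 overlapped. Spag9, the gene of JIP4, was called at 1 of 4 probes, its dimmest (probe 4, detected on 7 arrays). The rise there was 1.51 in WT and at least 2.35-fold in Mapk9 KO. Both calls were lost with quantile normalization without background correction (log2 differences of 0.72 and 0.74), the latter a smaller difference than that bound. Its brighter probes 1, 2 and 3, each detected on 12 arrays, were not called (0.10, 0.44 and 0.45 in WT, 0.36, 0.19 and 0.22 in Mapk9 KO). Among the other MAP kinases, the p38 gene Mapk13 rose by 2.33 in WT and 2.29 in Mapk9 KO at probe 1. The p38 gene Mapk12, known for its abundance in skeletal muscle, fell by 1.31 in WT and 1.93 in Mapk9 KO at probe 1, and its WT call was lost without WT control replicate 3 (-1.0). With quantile normalization without background correction all 3 Mapk12 probes lost the WT call (-0.77, -0.70 and -0.42) and probes 2 and 3 the call in Mapk9 KO (-0.85 and -0.51), and the methods' t-test called none of the 3 in WT (adjusted p of 0.0897, 0.0977 and 0.158). The p38 activator Map2k6 was at least 1.51-fold lower in WT injured and at least 1.24-fold lower in Mapk9 KO injured at probe 3, with its brighter probes 1 and 2 not called in Mapk9 KO (-0.75 and -0.62), and the call in Mapk9 KO was lost without Mapk9 KO injured replicate 2 (-0.66). All 3 Map2k6 probes lost the WT call with quantile normalization without background correction (-0.51, -0.49 and -0.55), the last a smaller difference than the bound printed for probe 3, and probe 3 lost the call in Mapk9 KO (-0.34). The methods' t-test did not call probes 2 and 3 in WT (adjusted p of 0.137 and 0.0906) or probe 3 in Mapk9 KO (adjusted p = 0.157), and neqc put the latter under the fold limit (-0.80). The summed skeletal muscle markers given above fell over the same arrays, and their part in the falls of Mapk12 and Map2k6 was not tested.

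**Figure D4:**
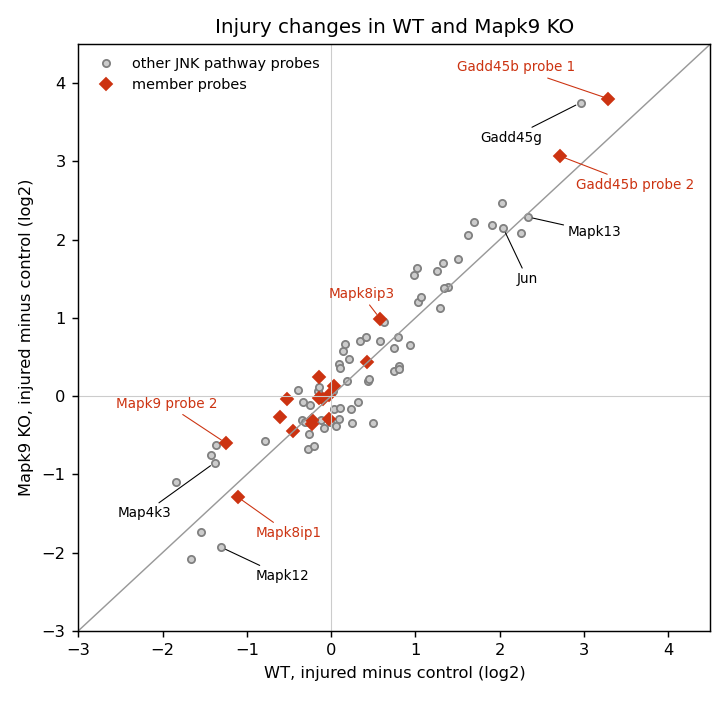
Injury change (injured minus control, log2 scale) in WT on the horizontal axis and in Mapk9 KO on the vertical axis, for the 17 probes of the set (red) and the 67 probes of the other pathway genes (grey). The diagonal marks equal change. Gadd45b probe 1 lies at 3.29 and 3.80, Mapk8ip1 at -1.11 and -1.29, and Mapk9 probe 2, undetected in Mapk9 KO, at -1.25 and -0.60.

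Between the genotypes, 0 of the 41 other pathway genes were called by limma in control hips, in injured hips or in the average. At an unadjusted p under 0.05 there were 5, 7 and 9 of the 67 probes (7.46%, 10.4% and 13.4%), against 6.46%, 12.6% and 8.79% of all probes, and the methods' t-test called 0 in both conditions. Each gene was then ranked by its probe of smallest p only. In control hips the smallest p belonged to Gadd45g probe 2 (-0.80, SE 0.21), Map4k2 probe 1 (-0.70, SE 0.22) and Map3k12 (-0.58, SE 0.22), with limma adjusted p of 0.463, 0.588 and 0.701. In injured hips it belonged to Map3k2 (0.71, SE 0.15), Map2k5 (-0.61, SE 0.17) and Map3k7ip1 probe 2 (-0.54, SE 0.16), with limma adjusted p of 0.168, 0.230 and 0.237. The first of these, a MAP3 kinase gene, was undetected in WT injured and at least 1.27-fold higher in Mapk9 KO injured. In the average it belonged to Map3k7ip1 probe 2 (-0.46), Map3k12 (-0.47) and Gadd45g probe 2 (-0.40), with limma adjusted p of 0.324, 0.360 and 0.441. The median genotype difference of the 67 probes was -0.07 in control hips, -0.07 in injured hips and -0.09 in the average, beside -0.01, -0.04 and -0.02 over all probes.

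Over the 12 arrays, the probes whose levels ran most like those of Mapk9 probe 1 belonged to Nnmt (Pearson r = 0.977), LOC380706 (0.975), Anxa6 (0.974), B930010D08Rik (0.973) and Kif23 (0.962), while Mapk9 probe 2 had r = 0.917. These correlations are over arrays of 4 groups that differ by genotype and by injury, and describe them only. The average genotype differences of the 5 probes were -5.44 for Nnmt, -3.63 for LOC380706, -1.56 for Anxa6, -2.28 for B930010D08Rik and -2.64 for Kif23. By the RefSeq table (GRCm38.p6), Anxa6 is on chromosome 11, as Mapk9 is, and Nnmt and Kif23 are on chromosome 9. Nnmt encodes nicotinamide N-methyltransferase, Anxa6 an annexin and Kif23 a mitotic kinesin. The probes most like Gadd45b probe 1 belonged to 2310006J04Rik (r = 0.998), Hspa1b (0.994), Kcna6 (0.993), LOC386463 (0.993) and Plk2 (0.992), over the same arrays, and Gadd45b probe 2 had r = 0.983. Hspa1b encodes an inducible heat shock protein of the HSP70 family and Plk2 a stress-responsive polo-like kinase.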

How the data were processed

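The authors deposited raw bead signal intensities for 45281 probes, each with a detection p-value, and log2 values for 21004 of them. Per the study's methods, intensities were background-corrected with negative control probes and normalized with vsn, in a version not given in the sources used here. The log2 values were used as deposited. Intensities served the alternatives and the probes outside the table.

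Tests were run per probe in R 4.3.3 with limma 3.58.1 (lmFit, eBayes) and Benjamini-Hochberg adjustment over the 21004 probes. Two-group comparisons were fitted on their 6 arrays, averages and the interaction on 12. A call required an adjusted p under 0.05 together with a fold change above 2, except for the interaction, which had no fold limit. Where a probe was undetected (detection p of 0.05 or more) on every array of a group, the fold is a bound, set against the higher of each array's dimmest detected level and the probe's own. Such a bound is for group means of the deposited values and takes no account of the spread between arrays. The fits were tested on simulated data.

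Groups and replicate numbers came from the sample labels. For 18 pairs of arrays with the same number, the correlation of their deviations from the group means lay between 0.153 and 0.390, and for the 36 other pairs between -0.289 and 0.0825, so the numbers were taken as pairing the samples and a blocked fit was run. Deviations cancel within a group, so the negative values of the other pairs partly follow from the positive ones. Fits printed here have no block unless the replicate block is named. The p-values measure the spread between 3 pooled samples per group.

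Named were the members, the pathway genes called in a comparison or, between the genotypes, the 3 with the smallest p, and the 5 probes most like Mapk9 and Gadd45b. The members and lists were chosen with earlier results of these data known. Probe coordinates were not used, since no genome build is named. Some marker genes of the lists are not reported here.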

Additional observations from a re-analysis of the deposited data

Results flagged for a closer look

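Both probes of Map2k7 that lie outside the normalized table were detected on a single array each. Map2k7 outside probe 1 had a detection p of 0.0427 on WT injured replicate 3, with raw signals of 121 to 175 in WT injured and 134 to 160 in WT control. Map2k7 outside probe 2 had a detection p of 0.0224 on Mapk9 KO injured replicate 1, with raw signals of 132 to 204 in Mapk9 KO injured and 120 to 218 in WT control. They drew attention because they lie in data outside the table used for the comparisons, and their signals overlapped those of the other groups.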

How the results depend on the processing

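Of 1958 values of the 17 probes under the alternatives, 1921 kept their side of the threshold, 25 lost a call, 12 gained one and 0 reversed. Uncalled values differed in sign from the main fit in 116 cases, 38 of them for the interaction. With the replicate block, 1 probe was called between the genotypes in control hips in place of 2, and no other call of the 17 probes changed. Blocking on the digit in the sample's label code changed none of these counts. With quantile normalization without background correction the called probes numbered 1 in control hips, 1 in injured hips and 1 in the average for genotype, and 2 post injury in WT, and 8 of the other pathway genes were called post injury in WT and 8 in the average, in place of 13 and 14. With neqc 1 probe was called between the genotypes in injured hips. The methods' t-test called 0 probes for genotype in control hips, 0 in injured hips and 2 post injury in WT. Without the fold limit, 6 probes of the set were called post injury in Mapk9 KO and 8 in the average, and 20, 23 and 26 other pathway genes in WT, in Mapk9 KO and in the average. With single arrays left out, the counts ran from 1 to 2 for genotype in control hips, from 1 to 2 in injured hips, from 2 to 4 post injury in WT, from 3 to 4 in Mapk9 KO and from 3 to 4 in the average. The cause of these changes was not tested, beyond the fewer samples where an array was left out and the wider rule where the fold limit was dropped. Map3k5, Map3k7, Mapk8ip3 and the dimmer probes of Mapk8, Mapk9 and Map2k7 lay near background. There the size of a difference can depend on the processing, as for Mapk9 probe 2 between the genotypes in control hips. That difference was -2.67 with the deposited values and -0.85 with quantile normalization without background correction.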
